A study of Mus musculus with 2 samples.

Results

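The Bcl2 family decides whether a cell keeps its mitochondria intact or dies by apoptosis, and 10 of its genes were followed here: the survival genes Bcl2, Bcl2l1 and Mcl1, the effectors Bax and Bak1, and the BH3-only genes Bcl2l11, Bbc3, Pmaip1, Bid and Bad. A peak belonged to a gene when it overlapped the mm10 span of that gene with 50 kb added on each side. By this rule the 10 windows held 181 of the 64910 treatment peaks and 209 of the 85137 control peaks on chromosomes 1 to 19, X and Y. No peak fell in more than 1 window.

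The peaks came from ATAC-seq, in which a transposase cuts accessible DNA, of mouse CD8+ T cells that the series title calls Peml-1. There was 1 library titled treatment and 1 titled control. The agent, dose and time, and the age, strain and genotype of the mice, are not given in the labels used here, and a second label field reads "Combined treatment" for the library titled treatment and "Treatment" for the one titled control. Treatment and control below mean the titles, and what both libraries may have received in common is not known. With 1 library in each group no test was possible, and each difference is one between these libraries. The label of CD8+ T cells was checked at gene starts, or at either gene end where the table gives no start: 7 of 7 T cell genes (Cd3d, Cd3e, Cd3g, Cd8a, Cd8b1, Thy1 and Lck) had a peak in treatment and 7 of 7 in control, with 716 to 1492 and 736 to 1598 reads at the summit. The B cell genes Cd79a and Ms4a1 had none in either library, and of 3 myeloid genes 1 had one in treatment and 3 in control, with summits of 295 reads and 33 to 454 reads. Cd4, but not Foxp3, had a peak in both, of 230 reads in treatment and 363 reads in control. Of 3 melanocyte genes, Mlana had a peak in both, of 138 reads in treatment and 211 reads in control. The part of other cells in the results below was not tested.

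BAX and BAK1 open pores in the outer mitochondrial membrane, which releases cytochrome c and starts the caspase cascade. BCL2, BCL-XL (the long product of Bcl2l1) and MCL1 hold them in check, and BH3-only proteins, which share a short BH3 segment, bind and neutralise these guardians or activate the effectors directly. In CD8+ T cells, IL-7 and IL-15 sustain Bcl2 in naive and memory cells, and BIM, the product of Bcl2l11, drives the death of most effector cells when a response contracts. Accessibility of a gene's DNA is not its expression, which was not measured. In a bulk library, a site open in fewer cells and a site less open in each cell cannot be told apart.

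Each of the 10 genes had an accessible start in both libraries. A peak lay within 1 kb of at least 1 start in treatment and in control at 10 of 10 genes, where 61.6% of the 17491 protein-coding genes with an annotated start had this. Counted by single starts, 48.3% of all annotated starts had a peak in treatment, 52.5% in control and 48.0% in both. Pmaip1 has no entry in the start table, so either end of its span was used, and its peak covered the lower end. All 10 also had both peaks when peaks were kept only from a −log10 q-value of 10 upwards, and when the lists were made equally long. Their summit coverage, the number of reads stacked over the highest base, recovered from the deposited fold and p-value, ran from 717 to 2517 reads in treatment and from 996 to 2578 reads in control. The median over all peaks was 189 reads in treatment and 220 reads in control.

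Among the survival genes, the start of Bcl2 (chr1, minus strand, base 106714290) had 2106 reads in treatment and 1898 reads in control. Bcl2l1 has 3 annotated starts, and 1 peak spanned the upstream pair, with 2517 reads in treatment and 2578 reads in control. The third start, at base 152828489 of chr2, had no peak within 1 kb in either library. Mcl1 had 1267 reads in treatment and 1315 reads in control. The survival starts thus differed little between the libraries.

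Among the death genes, Bax had 1044 reads in treatment and 996 reads in control, but its peak was 907 bp wide in treatment and 1636 bp in control. Bak1 had 835 reads in treatment and 1233 reads in control. Bcl2l11 had a separate peak at each of its 2 starts, with 2146 and 1900 reads in treatment and 2141 and 2167 reads in control. Bbc3, which encodes PUMA, had the widest start peak of the family, 2161 bp in treatment and 2827 bp in control. It covered all 3 Bbc3 starts and had 2037 reads in treatment and 1967 reads in control. Pmaip1, which encodes NOXA, had 717 reads in treatment and 1081 reads in control. Bid, whose product links death receptors to mitochondria, had 1573 reads in treatment and 1720 reads in control. Bad, whose product is switched off by growth factor signalling, had 1196 reads in treatment and 1142 reads in control. Bak1 and Pmaip1 were therefore the members whose start stood lowest in treatment against control, at ratios of 0.677 and 0.663.

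Over the 11 start pairs the median ratio of treatment to control coverage was 0.976, and coverage was higher in treatment at 5 of 11. Over all 12314 pairs at annotated starts the median was 0.829, and 17.3% were higher in treatment. Deep starts in general came closer to parity: the 5919 pairs with at least 996 control reads, a limit chosen after the values were seen, had a median of 0.911, and 24.2% were higher in treatment. The peak was wider in treatment at 0 of 11 starts, where 12.6% of all pairs at annotated starts were.

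**Figure D1:**
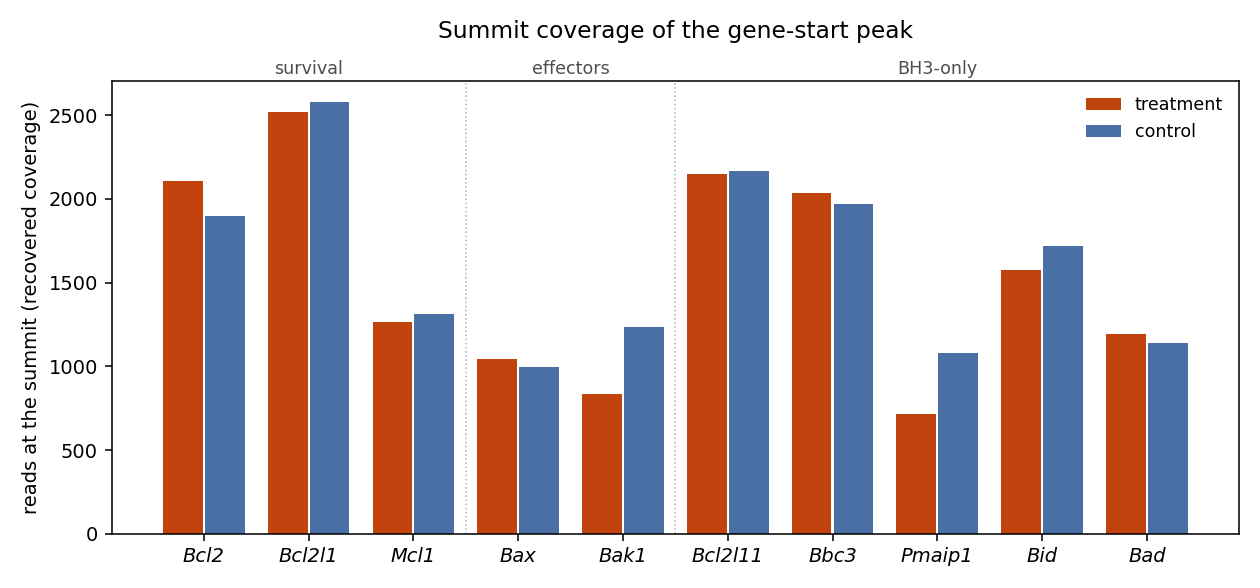
Summit coverage in reads (vertical axis, from 0) of the deepest peak at a start of each gene in each library, with the treatment bar left of the control bar and genes ordered by role. The bars of a gene are of similar height except at Bak1 (835 and 1233 reads) and Pmaip1 (717 and 1081 reads), and there are no error bars because each bar is 1 library.

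The 250 bases before a start are shown for 5 members, 1 or 2 of each role, because these stretches lie within the start peaks of both libraries. They are from RefSeq (GRCm38.p6, the assembly also called mm10), read 5′ to 3′ on the strand of the gene, with a motif in capitals. The motif is the GC box in Bcl2, the ETS core in Mcl1, the E-box in Bax and the FOXO core in Bcl2l11 and Bbc3.
Bcl2, chr1:106714291-106714540, minus strand: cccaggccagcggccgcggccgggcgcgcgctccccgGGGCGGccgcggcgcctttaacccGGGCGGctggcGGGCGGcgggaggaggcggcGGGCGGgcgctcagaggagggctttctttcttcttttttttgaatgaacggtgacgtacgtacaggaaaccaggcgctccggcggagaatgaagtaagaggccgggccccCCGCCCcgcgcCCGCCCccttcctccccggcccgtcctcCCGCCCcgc
Mcl1, chr3:95658471-95658720, plus strand: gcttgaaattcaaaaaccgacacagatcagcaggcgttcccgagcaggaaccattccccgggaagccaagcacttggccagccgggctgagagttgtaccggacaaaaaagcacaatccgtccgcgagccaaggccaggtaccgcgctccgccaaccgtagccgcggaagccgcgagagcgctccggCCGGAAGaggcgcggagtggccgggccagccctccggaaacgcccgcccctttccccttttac
Bax, chr7:45466899-45467148, minus strand: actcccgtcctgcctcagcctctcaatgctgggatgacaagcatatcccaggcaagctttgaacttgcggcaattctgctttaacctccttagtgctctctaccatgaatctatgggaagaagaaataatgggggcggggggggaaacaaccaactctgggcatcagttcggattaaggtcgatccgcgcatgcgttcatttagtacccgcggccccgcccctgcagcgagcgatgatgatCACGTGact
Bcl2l11, first start, chr2:128125788-128126037, plus strand: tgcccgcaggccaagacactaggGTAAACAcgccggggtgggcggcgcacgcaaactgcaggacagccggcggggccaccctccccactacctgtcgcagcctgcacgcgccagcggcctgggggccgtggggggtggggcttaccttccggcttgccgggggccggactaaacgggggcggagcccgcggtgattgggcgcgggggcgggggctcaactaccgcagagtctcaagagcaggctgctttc
Bbc3, second start, chr7:16310011-16310260, plus strand: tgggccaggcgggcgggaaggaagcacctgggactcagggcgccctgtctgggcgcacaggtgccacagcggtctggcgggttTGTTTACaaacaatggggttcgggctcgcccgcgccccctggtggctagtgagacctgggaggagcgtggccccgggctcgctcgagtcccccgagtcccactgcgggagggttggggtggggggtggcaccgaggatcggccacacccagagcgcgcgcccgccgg

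A search for 11 motifs on both strands covered these 250 bases at 15 annotated starts of 9 members. FOXO factors are known activators of Bcl2l11 and Bbc3, and the FOXO core TGTTTAC was found at 2 of the 15, which were these genes, against 3.17% of 32851 promoters of the same length. In Bcl2l11 it lay 221 to 227 bases before the start, on the opposite strand, and in Bbc3 161 to 167 bases before. Both matches were inside the start peak of both libraries. The GC box GGGCGG was found at 10 of 15, with 7 matches before Bcl2, against 32.7% of promoters. The ETS core CCGGAAG was found before Mcl1 and the first start of Bcl2l11 (6.91% of promoters), and the E-box CACGTG before Bax and the last start of Bbc3 (6.02%). The p53 half-site, 10 bases long, was found before Bax (7.13%), where it overlaps the TCF motif CTTTGA (13.8%). NF-kB (GGGNNTTCC, 4.98%) was found before a start each of Bcl2l1 and Bbc3, Runx (TGTGGT, 14%) before Bak1 and the T-box motif GGTGTGA (3.33%) before a start of Bcl2l1. AP-1 (TGANTCA, 6.75%) and STAT (TTCNNNGAA, 7.02%) were found at 0 of 15. GC box matches can overlap each other. These are matches of letters in this window and not sites shown to be bound.

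Over the whole windows, peaks were fewer in treatment at each member. Fewer peaks were found in treatment at 10 of 10 members, where 77.9% of the 18722 protein-coding genes with a peak in their window also had fewer. The 10 windows held 181 peaks in treatment and 209 in control, a ratio of 0.866, against 0.768 for peaks near any protein-coding gene. The 95% counting interval of 0.71 to 1.06 takes both counts as independent. Most of these peaks were the same sites in both lists (173 pairs), so the interval cannot show whether 0.866 differs from 0.768. Bid (0.643) and Bak1 (0.75) had ratios below 0.768. The ratio was 0.885 for survival genes (85 and 96 peaks), 0.794 for effectors (27 and 34) and 0.873 for BH3-only genes (69 and 79), and 0.850 for all death genes (96 and 113). Without Bcl2, the family ratio was 0.856. For the family and the survival genes, this direction depends on the unequal length of the lists. The control list was shortened to the 64910 peaks with the best −log10 p-value (36.7 or more), while the treatment list kept peaks from 3.81. The family then had 181 and 156 peaks, a ratio of 1.16, and the survival genes 85 and 59, a ratio of 1.44. Bcl2 alone had 44 and 23 peaks, a ratio of 1.91. The death genes had 96 and 97 peaks, a ratio of 0.99. Both whole lists then held 64910 peaks, so the ratio over all peaks also rose, from 0.762 to parity by construction. Fewer peaks in treatment were then found at 3 of 10 members. With the full lists, fewer were found in gene spans alone at 5 of 10, and with 10 kb on each side at 6 of 10. The share of all genes with fewer peaks was counted only for the main setting, so these counts have none beside them.

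Of the control peaks in the windows, 33 of 209 or 15.8% (95% Wilson interval 11.5 to 21.3%, counting error only) overlapped no treatment peak, against 29.2% of all control peaks. Of the treatment peaks, 8 of 181 or 4.42% (2.26 to 8.48%) overlapped no control peak, against 6.80% of all treatment peaks. Survival and death genes had similar control-only shares, 14.6% (8.89 to 23.0%) and 16.8% (11 to 24.8%). With lists of equal length the control-only share was 5.13% and the treatment-only share 18.8%, against 16.7% and 16.1% of all peaks.

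**Figure D2:**
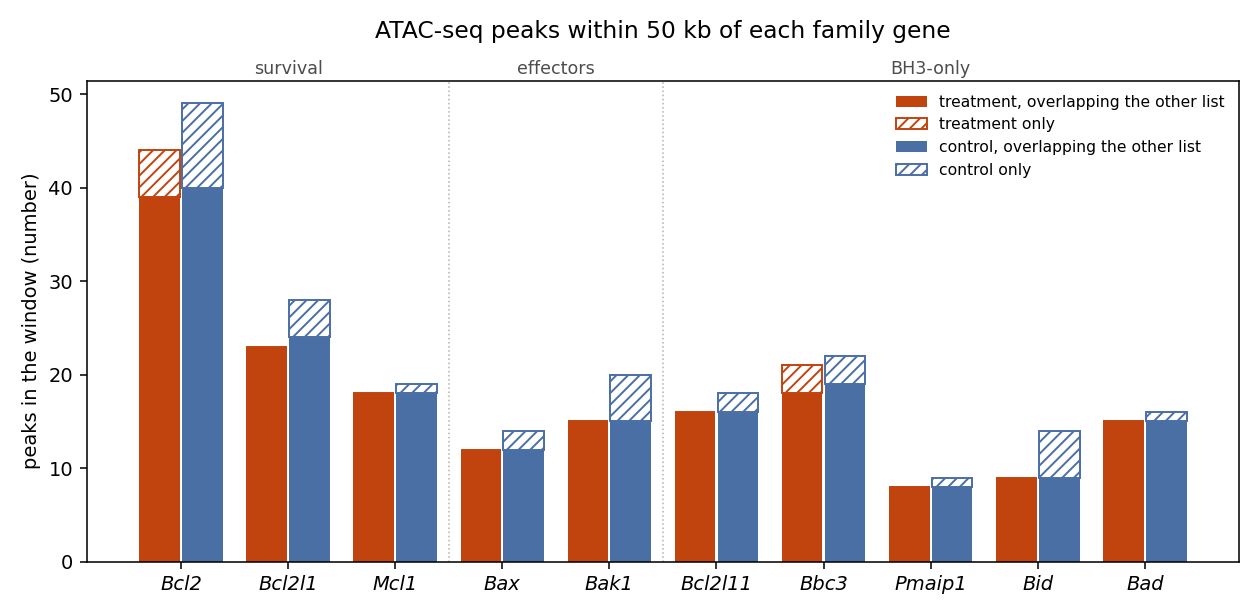
Number of peaks (vertical axis) in the window of each gene, with the treatment bar left of the control bar. Filled parts overlap a peak of the other library and hatched parts do not. Each of the 10 genes has a control-only part, and Bcl2 and Bbc3 alone have a treatment-only part, of 5 and 3 peaks.

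Bcl2 stood out for the number of its peaks, as a gene of 176115 bp (chr1:106538176-106714290). Its window held 44 peaks in treatment and 49 in control, of which 33 and 37 touched the gene itself, and 18 of all protein-coding genes had more control peaks. Per 100 kb it had 15.9 peaks in treatment and 17.7 in control, while Bbc3 had 19.1 peaks in treatment. Its peaks were weak for their lists by the authors' fold enrichment over local background, with medians of 4.37 in treatment and 3.92 in control, at percentiles 26.7 and 18.6 of the lists. By summit coverage they were less so, at percentiles 37.0 and 32.1, and the local background under them, 30.8 and 32.5 reads, lay at percentiles 62.5 and 62.4.

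Weak Bcl2 peaks were mostly found in both libraries. Of its 27 control peaks in the lowest quartile of fold, 19 overlapped a treatment peak, whereas 61.7% of all such control peaks overlapped none. This was not particular to Bcl2. Of such control peaks, 4 of 17 at the other survival genes overlapped none, and 27 of 72 at all 10 members. The 5 treatment-only peaks of Bcl2 lay 12822 to 91311 bp downstream of the start, within the gene, with summits of 43 to 89 reads. The 9 control-only peaks also lay within the gene, with summits of 34 to 328 reads. Single-library peaks at Bcl2 were thus all in its body, and 1 of the 14, the control-only peak of 328 reads, was above the median coverage of its list.

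Apart from the start peak, the deepest peaks within Bcl2 were 3 in the middle of the gene. In control, 1 of them was deeper than the start peak (2063 against 1898 reads). At chr1:106600439-106601628 the summit had 1858 reads in treatment and 1777 reads in control. At chr1:106606728-106607568 it had 1561 and 1722 reads, and at chr1:106612253-106613632 it had 1858 and 2063 reads. The next deepest lay just inside the gene, at chr1:106711945-106712877, with 1490 and 1479 reads. The ratios of treatment to control at these 4 peaks were 0.901 to 1.05.

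Elsewhere in the gene, some Bcl2 peaks had more reads in treatment. At chr1:106565728-106566429 the summit had 683 reads in treatment and 194 reads in control, a ratio of 3.52. At chr1:106562127-106562642 it had 283 and 125 reads (2.26), and at chr1:106544789-106545528 it had 547 and 343 reads (1.59). At chr1:106636507-106637409 it had 132 and 51 reads (2.59), in a peak 903 bp wide in treatment and 231 bp in control. Other peaks of the same gene went the other way, among them chr1:106588512-106589137 with 101 and 312 reads (0.324) and chr1:106581725-106582186 with 175 and 450 reads (0.389). Beyond the end of the gene, 8 of 8 pairs had fewer reads in treatment, at ratios of 0.516 to 0.786, where 15.0% of all pairs were higher in treatment. The libraries thus differed along Bcl2 in both directions, and these peaks were picked after their values were seen.

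**Figure D3:**
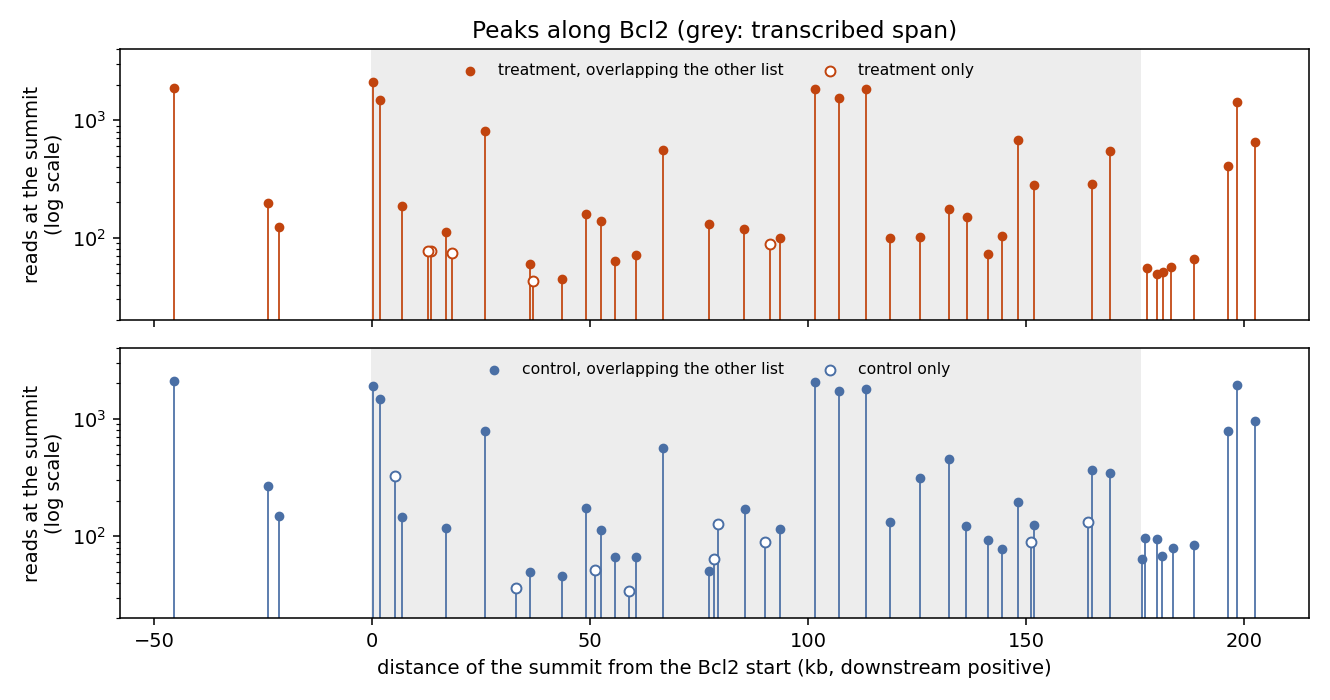
Summit coverage in reads (log scale) of each peak in the Bcl2 window against the distance of its summit from the Bcl2 start in kb, treatment above and control below. Open circles are peaks found in 1 library only, and all 14 lie within the grey gene span. Within the gene the tallest lines stand at the start and in the middle in both panels.

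Bcl2l1, a gene of 75072 bp, held 23 treatment peaks and 28 control peaks, of which 0 and 4 were found in 1 library only. Its strongest peak by fold in both lists lay upstream of all 3 starts, between genes, at chr2:152847648-152848423 in treatment. That peak had a fold of 22.8 in treatment, at percentile 99.2 of the list, and its control partner 20.6, at percentile 94.4. It had 1052 and 1357 reads at the summit, and was 776 bp wide in treatment and 1278 bp in control. The deepest peak inside the gene away from the start, at chr2:152788866-152790173, had 1389 and 1881 reads. The control-only peaks of Bcl2l1 had 55 to 81 reads.

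Mcl1, which CD8+ T cells need at most stages to stay alive, held 18 treatment peaks and 19 control peaks, and 1 peak in each touched the gene itself. The only unshared peak was in control, with 313 reads, at chr3:95663992-95664476. It was the nearest of all peaks downstream of Mcl1. Beyond it, the 4 nearest shared peaks had more reads in treatment. At chr3:95666114-95666452 the summit had 686 reads in treatment and 295 reads in control (2.33), and at chr3:95668534-95669545 it had 933 and 788 reads. At chr3:95672457-95673493 it had 1279 and 1105 reads, at the annotated start of Gm52627, and at chr3:95673821-95674625 it had 1575 and 1498 reads. The strongest control peak by fold, 19.9, lay upstream of Mcl1 at chr3:95645354-95645820. That site had 185 reads in treatment and 450 reads in control. Further out, the peak at chr3:95697695-95697887 had 49 and 228 reads. Mcl1 was thus flanked by peaks that differed in both directions.

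The effectors Bax and Bak1 lie among other genes, and most peaks of their windows belonged to the neighbourhood. Only the start peak touched either gene, in both libraries. The Bax window held 12 treatment peaks and 14 control peaks, with 8 other protein-coding genes in the window, among them Ftl1, which encodes ferritin light chain, and Gys1, a glycogen synthase. The deepest peak there lay at the starts of Gys1 and Ruvbl2, with 1808 and 1938 reads. The start peak of Bak1 also covers a start of Ggnbp1. Bak1 had 15 and 20 peaks, with 4 other genes, and its deepest peak, at the start of Zbtb9, had 1941 and 2186 reads. The strongest Bak1 window peak by fold in both lists lay between genes at chr17:26980853-26981648, with folds of 19.2 and 19.8 and 884 and 855 reads. Bak1 had 5 control-only peaks, of 67 to 508 reads, and Bax had 2, of 61 and 113 reads. The effectors had 0 treatment-only peaks, of 27.

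Bcl2l11 kept its starts but had lower coverage around them. Its window (chr2:128076038-128212547) held 16 treatment and 18 control peaks, and the median coverage ratio of its 16 pairs was 0.514, the lowest of the 10 members. Of these pairs, 7 were at least 2-fold lower in treatment, where 21.4% of all pairs were. Downstream of the gene, the peak at chr2:128197259-128197817 had 184 reads in treatment and 536 reads in control, and the one at chr2:128189428-128190598, at the start of Gm14009, had 333 and 777 reads. Upstream, within the neighbour Acoxl, the peak at chr2:128117500-128118014 had 206 and 549 reads. In the gene, the peak at chr2:128152506-128153906 had 935 and 1155 reads. Upstream peaks with more reads in treatment were chr2:128087647-128088614, with 419 and 248 reads, and chr2:128103027-128103945, with 482 and 338 reads, the strongest by fold in both lists. Apart from these and the first start, the pairs of Bcl2l11 were lower in treatment.

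Bbc3 had 21 treatment peaks and 22 control peaks in a window with high local background, 112 and 137 reads, at percentiles 93.3 and 95. Its pairs had a median coverage ratio of 0.888, and 0 of 18 was 2-fold lower in treatment. It was the only member besides Bcl2 with treatment-only peaks: 3, of 64 to 320 reads, within the neighbour Sae1, a SUMO-activating enzyme subunit. Its 3 control-only peaks had 253 to 537 reads, and those at chr7:16311569-16311858 and chr7:16312783-16312962, within Bbc3, had folds of 1.63 and 1.68. Their local backgrounds of 319 and 320 reads were the highest of any single-library peak of the family. The deepest peak of the window lay at the start of Ccdc9, with 2420 reads in treatment and 1971 reads in control, a ratio of 1.23.

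Pmaip1 lies alone, with 0 other protein-coding genes in its window on chromosome 18, and held 8 treatment peaks and 9 control peaks. Beyond the upper end of its span, at chr18:66470275-66471802, the peak had 722 and 932 reads. The peak at chr18:66485472-66486128 had 79 reads in treatment and 370 reads in control (0.214), and the one at chr18:66441906-66442960 had 198 and 112 reads (1.77). All other pairs had fewer reads in treatment.

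Bid had 9 treatment peaks and 14 control peaks, the lowest ratio of the family (0.643), and 5 of 14 control peaks, or 35.7% (16.3 to 61.2%), were control-only. Among these, chr6:120915228-120915644, 1430 bp inside the gene, had 599 reads in control, the deepest single-library peak of the family. Within the gene, the peak at chr6:120901885-120902335 had 97 reads in treatment and 535 reads in control, a ratio of 0.181 and the lowest of all 173 pairs. Upstream, a peak within the neighbour Mical3, at chr6:120933998-120934787, had 865 and 601 reads (1.44). Its control-only share was the highest of the 10, but the interval includes the 29.2% of all control peaks.

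Bad sits in a gene-rich stretch of chromosome 19 with 15 other protein-coding genes in its window. Of its 15 treatment and 16 control peaks, 11 and 11 lay at starts of other genes, among them Esrra, a nuclear receptor that drives mitochondrial genes (2580 and 2571 reads), and Fkbp2 (3018 and 2828 reads). Its pairs had a median ratio of 0.820 and 0 of 15 was 2-fold lower in treatment. Within Bad, the peak at chr19:6950634-6952526 had 525 and 763 reads. The Bad start peak also covers a start of Gpr137, and its summit lay 816 bp apart between the libraries. Most peaks at Bad thus lay at other genes.

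By the authors' fold, the strongest peak of a window was often not at the member itself. At Bcl2 it was the start of Kdsr in both lists (16 and 16.3). At Mcl1 the strongest treatment peak was the start of Ensa (16.3), and at Bax the start of Nucb1 in treatment (19.1) and a peak in another gene in control (21.7). At Bbc3 it lay within Sae1 in both (17.8 and 17.3), and at Bad at Dnajc4 in treatment (16.1) and at Vegfb in control (15.2). Pmaip1 had its strongest at the lower end of its span in treatment (15.9) and away from there in control (16.7). At Bid, the start and the peak within Mical3 both had a fold of 18.5 in treatment, at percentiles 93.1 and 93.2, and in control the strongest lay in another gene (20.3).

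Across the family, 173 pairs of peaks overlapped each other best in both directions. Their median coverage ratio of treatment to control was 0.775, against 0.706 for all 59877 pairs. Of these, 42 of 173 were higher in treatment, or 24.3%, against 15.0%. Without the 39 pairs of Bcl2, the median was 0.736 and 20.9% were higher. By quartile of control coverage, from the lowest, the family medians were 0.854, 0.728, 0.617 and 0.882. For all pairs these were 0.867, 0.636, 0.619 and 0.797. Survival genes had a median of 0.816 with 25 of 80 pairs higher in treatment, and death genes 0.733 with 17 of 93. By gene the medians were 0.907 at Bcl2, 0.888 at Bbc3, 0.861 at Mcl1, 0.820 at Bad, 0.715 at Pmaip1, 0.708 at Bcl2l1, 0.687 at Bax, 0.677 at Bak1, 0.601 at Bid and 0.514 at Bcl2l11. The order mixed the roles, and without Bcl2 the survival median was 0.738. At least 2-fold higher coverage in treatment was found at 4 of 173 pairs, 3 at Bcl2 and 1 at Mcl1, where 0.917% of all pairs had it. At least 2-fold lower coverage was found at 24 of 173, or 13.9%, where 21.4% of all pairs had it. Among these were 9 of 80 pairs at survival and 15 of 93 at death genes.

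Peaks at annotated starts and peaks away from them differed in this ratio. In the windows, the 35 pairs at a start of any gene had a median of 0.908 and the 138 others 0.732, and over the genome these medians were 0.829 and 0.677. Survival windows held few starts, 7 of 85 treatment peaks and 7 of 96 control peaks, and death windows more, 28 of 96 and 29 of 113. Away from starts, the median was 0.785 for survival genes and 0.652 for death genes. The pair at the lower end of Pmaip1, which has no entry in the start table, counted here as away from starts. It was among the 11 start pairs above. Without Bcl2, the survival median away from starts was 0.729. Members share windows with other genes and are not replicates of a role, so no test was made between the roles.

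**Figure D4:**
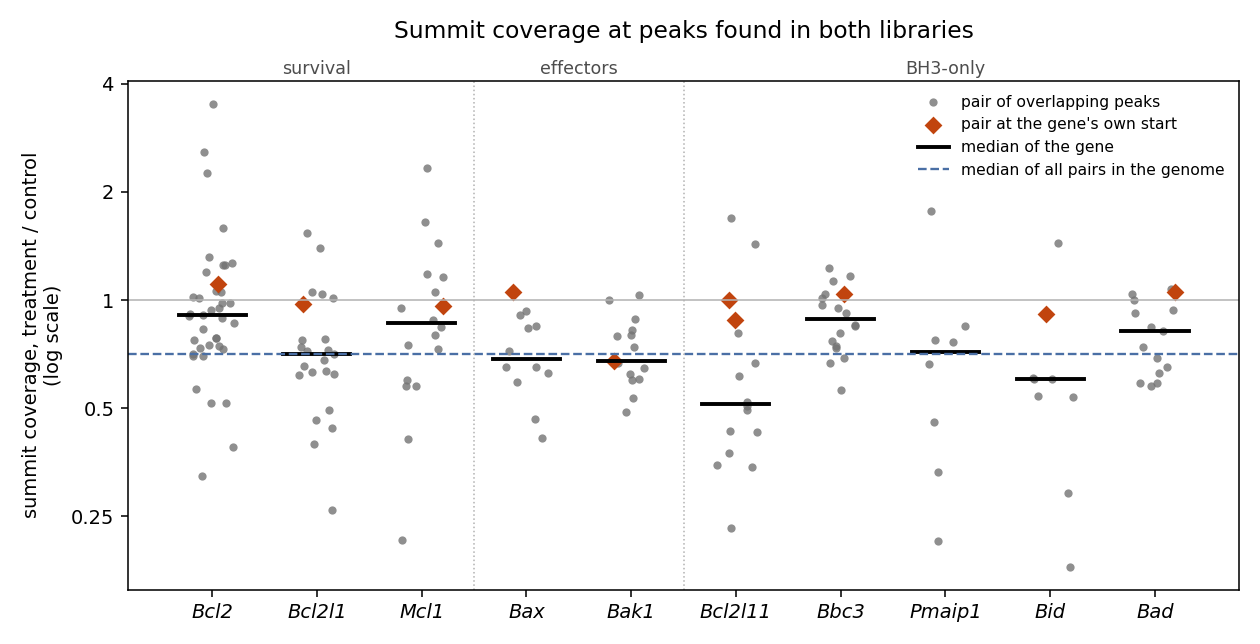
Ratio of summit coverage, treatment over control, on a log scale for each pair of overlapping peaks by gene (grey points), with pairs at the gene's own start as red diamonds, the gene's median as a black bar and the median of all pairs in the genome, 0.706, as a dashed line. Bcl2 has the highest median (0.907) and Bcl2l11 the lowest (0.514); Pmaip1 has no diamond because its start is not in the table used.

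Peaks in the windows were slightly wider than peaks in general, with a median of 565 bp in treatment and 587 bp in control against 532 and 520 bp over all peaks. By gene the median was lowest at Bid in treatment (451 bp) and at Bcl2 in control (450 bp), and highest at Bad in both (888 and 976 bp). Of the pairs, 45 of 173 or 26% were wider in treatment, where 21.2% of all pairs were, and 18 of these were among the 39 pairs of Bcl2 and 0 among the 15 of Bad. The median distance between paired summits was 3 bp, against 5 bp over all pairs. Summits lay within 50 bp of each other at 142 of 173 pairs, or 82.1%, close to the 81.3% of all pairs.

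Peaks found in 1 library only were narrow and low in fold, in the windows as in the whole lists. The 8 in treatment had a median fold of 2.69 and a median width of 294 bp, against 6.48 and 604 bp for shared treatment peaks of the windows. All treatment-only peaks had medians of 2.74 and 273 bp. The 33 control-only peaks of the windows had 2.81 and 281 bp, against 8.34 and 648 bp for shared control peaks there. All control-only peaks had 4.42 and 292 bp, so those of the windows had the lower median fold. By summit coverage the single-library peaks of the windows were deeper, with medians of 77.5 reads in treatment and 119 reads in control. Over all treatment-only and control-only peaks these medians were 51 and 86 reads. Shared peaks of the windows had medians of 243 reads in treatment and 350 reads in control. The strongest control-only peak by fold was at Bax (7.52, chr7:45499985-45500265), then at Bcl2l11 (7.13, chr2:128090332-128090616), Bid (5.50), Bcl2l1 (5.41), Bcl2 (4.87), Bak1 (4.69), Pmaip1 (4.55), Bbc3 (3.25), Mcl1 (2.22) and Bad (2.02). The strongest treatment-only peak was at Bbc3 (4.05), then at Bcl2 (2.72). Of the 8, 0 lay at an annotated start, where 2.90% of all treatment-only peaks did. Of the 33, 0 lay at one, where 6.29% of all control-only peaks did. By the rule of 3 over the number of peaks, a count of 0 allows up to about 37.5% and 9.09%. That rule is rough for so few peaks and is not the Wilson interval used elsewhere. Many lay near a peak of the other library: 3 of the 8 and 13 of the 33 had one within 1 kb.

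Beyond these 10, 36 genes of the same pathway were counted in 50 kb windows: other family members, caspases, their inhibitors and activators, death receptors and regulators. Fewer peaks in treatment were found at 28 of 36, more at 2 and as many at 6, against 77.9%, 6.22% and 15.9% of all genes. In these counts the list was close to the genome. Together they held 310 peaks in treatment and 399 in control, a ratio of 0.777. Control-only peaks made up 25.8% and treatment-only peaks 3.55%, against 29.2% and 6.80% over all peaks of each list. Among the larger deficits were those at Foxo3, a FOXO factor, with 14 and 21 peaks, and at Casp8, the caspase of death receptors, with 14 and 20, tied with Fas, a death receptor, with 9 and 15. More in treatment were Bok, a relative of Bax, with 8 and 7, and Birc2, an inhibitor of apoptosis, with 12 and 11. Bmf, a BH3-only gene, had 12 and 12. Of the 30 of these genes with an annotated start, 29 had a start peak in both libraries, and Bcl2l15 had none. Of all protein-coding genes with an annotated start, 61.6% had one in both. Windows of Bcl2l13 and Bid, of Casp8 and Cflar and of Birc2 and Birc3 overlap, so peaks there count for both genes but a single time in the sums. Reads of the near-identical Bcl2a1a, Bcl2a1b and Bcl2a1d may have been assigned to the wrong copy.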

How the data were processed

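Each library, 1 per group, was deposited as a peak list in mm10. Per the submitters' processing notes, the tools were cutadapt 2.5, Bowtie2 2.3, Picard 2.20 and MACS2 with no version. Read filters, transposase shift and caller settings are not given in the sources used here. There is 1 list per library. For every deposited peak the authors give a fold enrichment (a ratio to local background), −log10 p-value, −log10 q-value (at least 2.00) and a score, the −log10 q-value times 10 as a whole number. Folds and scores are the authors' own and describe peaks within a list.

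The treatment list held 65098 peaks and the control list 85285, of which 188 and 148 on other contigs, the mitochondrial genome included, were left out. No interval was repeated. Peaks overlapping by at least 1 bp counted as shared, and pairs were those of largest overlap in both directions. Fold and −log10 p-value together gave a whole-number read coverage and a local background at the summit of 100% of peaks in each list, to within 0.001 in −log10 p up to 100 and in proportion above. With the −log10 p raised by a random factor this was so for 1.05% of treatment and 1.18% of control peaks. Total reads were not used here. The lowest background per bp of the narrowest peak, 0.0809 reads in treatment and 0.0804 reads in control, would put the libraries at a similar depth, were that width the fragment length. Coverage was not normalised further.

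Gene spans and starts came from RefSeq tables (GRCm38.p6). All 10 members were found among 21883 protein-coding genes, and 9 in the start table. The peaks named by rule were the strongest by fold in each window and the strongest unshared one. Of the 36 other pathway genes, those with the largest excess or deficit of peaks in treatment were named, 3 each where there were as many. Some genes of these lists are not reported here by name. Other peaks and Bmf were named after their values were seen. The members and lists were chosen with earlier results of these data known. Python 3.11.15, SciPy 1.17.1, pandas 2.3.3 and matplotlib 3.10.9 were used, and the calculations were tested on simulated data. Other windows, overlap rules, thresholds and lists of equal length were tried.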

Additional observations from a re-analysis of the deposited data

How the results depend on the processing

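No paired analysis was possible because each group has 1 library. With lists of equal length, the ratio of treatment to control peaks was above 1 at the family (1.16) and survival windows (1.44). At the death windows the ratio was 0.99. By member it was above 1 at Bcl2 (1.91), Bcl2l1 (1.21), Mcl1 (1.06), Bbc3 (1.11) and Bad (1.07). Of the members, 3 of 10 had fewer peaks in treatment. The treatment-only share was then 18.8%, the control-only share 5.13% (survival 1.69%, death 7.22%) and the median control width 677 bp. Stricter overlap makes fewer peaks shared by construction. At a reciprocal overlap of 50%, the treatment-only share was 13.8% and the control-only share 25.4% (survival 27.1%). With summits within 150 bp these were 13.3% and 24.9% (survival 25%, death 24.8%). Over all peaks, these rules gave 14.4% and 34.8%, and 13.0% and 33.7%. Members with fewer peaks in treatment numbered 5 in gene spans alone and 6 with 10 kb. At these settings and with equal lists, the share of all genes with fewer was not counted. The equal lists drop the weaker control peaks by construction, and Bcl2 control peaks fell to 23. The other 54 summary values and 54 member values moved by less than their counting interval or 1.5 times. At Bbc3, the gene span alone gave 2 and 4 peaks. What depth limits was not tested, since total reads were not used. The shallowest unshared peaks of the family had 43 reads in treatment and 34 reads in control.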
